A study of Homo sapiens with 4 samples.

Results

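Secreted WNT antagonists were followed in A549, an established human lung adenocarcinoma line, with and without CRISPR targeting of UHRF1, the protein that brings the maintenance DNA methyltransferase DNMT1 to newly copied DNA. The genes were chosen by name as secreted inhibitors known as targets of promoter methylation: SFRP1, SFRP2, SFRP4, SFRP5, FRZB, WIF1, NOTUM, DKK1, DKK3 and DKK4. Each of the 10 was matched through GENCODE 29 to 1 of the 58735 gene identifiers in the count table. The UHRF1 KO group was 2 libraries of A549 cells given a UHRF1 guide in the lentiCRISPRv2-hygro lentivirus, and the control group was 2 libraries of cells given a non-targeting guide in the same vector, so both groups carried the virus and were selected with hygromycin. The sources used here give neither the interval between infection and harvest nor whether each culture was clonal. The labels also do not say if replicate libraries were grown separately, and the p-values therefore speak only of how these libraries vary, possibly for technical reasons.

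Whole-library totals were 20020366 and 23977168 counts in UHRF1 KO and 18604598 and 19222886 counts in control. UHRF1 itself had 811 and 1000 counts in the UHRF1 KO libraries, against 1740 and 1834 in the control libraries, a transcript level that does not measure the protein. Of 8 epithelial and A549 markers, all had counts in all 4 libraries, and their summed level was 7861 to 7901 CPM (the count as a share of the library's TMM-scaled size) in UHRF1 KO and 17218 to 17586 CPM in control, with 1 (EPCAM) called higher and 7 called lower, where edgeR called 32% of all genes tested higher and 30.1% lower. Most of that gap lay in ALDH1A1 and AKR1B10, without which the other 6 markers summed to 4582 to 4628 CPM in UHRF1 KO and 5832 to 6134 CPM in control. Of 14 markers of other cell types, 6 could be tested, 5 were higher and 0 lower. However, LUM, PDGFRB and PECAM1 passed the filter on low counts through UHRF1 KO alone. PDGFRB and PECAM1 thus had to be higher, while LUM, with 9 and 24 counts in control, did not have to be. The summed level of the 14 markers was 60.6 to 64.4 CPM in UHRF1 KO and 9.20 to 10.6 CPM in control. Without the endothelial marker PECAM1 and the collagen gene COL1A1 it was 16.5 to 17.4 CPM against 5.61 to 6.14 CPM. The T cell marker CD3E was at 0 in every library, and the endothelial CDH5 and myeloid LYZ had at most 3 counts in any. The part of these marker shifts in the results below was not tested. In bulk libraries, fewer cells that express a gene and less RNA per cell cannot be told apart.

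WNT proteins are lipid-modified signals that bind frizzled receptors together with the coreceptors LRP5 and LRP6, which stabilises beta-catenin and turns on TCF/LEF target genes. Cells restrain this signal outside the membrane in several ways. The SFRP proteins and FRZB carry a frizzled-like cysteine-rich domain and bind WNT, WIF1 binds WNT through a domain of its own, DKK1 and DKK4 bind LRP5 and LRP6, and NOTUM is a secreted enzyme that removes the lipid from WNT. DKK3 is a divergent relative of the other DKK proteins. Promoters of several of these genes are known to gain DNA methylation in tumours, lung cancer among them. Methylation itself was not measured in these libraries.

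Promoter windows of 300 bases, from 250 before to 50 after the RefSeq start site (GRCh38.p14), were found for 6 of the 10 genes. The windows of 4 of them are shown because these genes cover the range of responses: SFRP5 was higher in UHRF1 KO, FRZB had counts in UHRF1 KO libraries and none in control, WIF1 had counts in control libraries and none in UHRF1 KO, and DKK1 was abundant in both groups. Each is printed 5′ to 3′ on the gene's strand, with every CpG in capitals, the dinucleotide at which DNA is methylated. SFRP5 is at chr10:97771950-97772249, FRZB at chr2:182866588-182866887 and WIF1 at chr12:65121256-65121555, all on the minus strand, and DKK1 is at chr10:52314031-52314330 on the plus strand.
SFRP5: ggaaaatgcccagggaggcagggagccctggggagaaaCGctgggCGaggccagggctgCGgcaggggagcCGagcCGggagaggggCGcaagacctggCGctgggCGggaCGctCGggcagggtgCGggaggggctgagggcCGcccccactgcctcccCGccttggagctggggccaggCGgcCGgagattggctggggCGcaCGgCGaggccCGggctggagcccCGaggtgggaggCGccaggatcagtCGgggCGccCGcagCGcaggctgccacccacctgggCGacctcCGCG
FRZB: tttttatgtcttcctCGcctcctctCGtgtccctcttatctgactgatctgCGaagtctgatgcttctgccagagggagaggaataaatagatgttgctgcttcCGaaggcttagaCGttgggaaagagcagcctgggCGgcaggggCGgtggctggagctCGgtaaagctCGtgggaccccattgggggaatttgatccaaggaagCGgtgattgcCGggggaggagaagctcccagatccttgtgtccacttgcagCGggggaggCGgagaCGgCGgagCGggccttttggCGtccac
WIF1: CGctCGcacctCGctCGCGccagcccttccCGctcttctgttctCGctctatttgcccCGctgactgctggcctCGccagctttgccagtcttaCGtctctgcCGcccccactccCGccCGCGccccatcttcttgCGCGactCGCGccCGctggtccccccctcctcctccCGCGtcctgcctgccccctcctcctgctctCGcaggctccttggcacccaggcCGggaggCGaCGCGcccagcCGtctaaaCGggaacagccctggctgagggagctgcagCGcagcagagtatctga
DKK1: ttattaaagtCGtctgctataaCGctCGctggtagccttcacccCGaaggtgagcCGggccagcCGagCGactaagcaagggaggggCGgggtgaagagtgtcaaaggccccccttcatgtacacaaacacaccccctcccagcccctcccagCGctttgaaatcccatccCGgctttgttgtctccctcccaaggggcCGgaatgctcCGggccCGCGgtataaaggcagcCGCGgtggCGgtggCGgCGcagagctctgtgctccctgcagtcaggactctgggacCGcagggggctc

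CpGs numbered 28 in the SFRP5 window, 17 in FRZB, 29 in WIF1 and 20 in DKK1, and 23 and 15 in the windows of SFRP4 and SFRP2. The median over 35116 RefSeq windows of that length was 14, with quartiles of 4 and 28. WIF1, with counts in control alone, and SFRP5, higher in UHRF1 KO, held the most CpGs of the 6 windows and differed by 1 CpG. GC content was 77.3% in SFRP5, 58.3% in FRZB, 69.7% in WIF1 and 63.7% in DKK1, against a median of 58.7% over all windows. The ratio of observed to expected CpG was 0.65 in SFRP5, 0.69 in FRZB, 0.88 in WIF1 and 0.66 in DKK1, with a median of 0.58 over all windows. The first base of the GENCODE 29 gene model lay 15 bases from the RefSeq start for DKK1, 47 for SFRP5, 261 for WIF1 and 525 for FRZB, so the WIF1 and FRZB windows hold none of the sequence before their GENCODE starts. The distance was 108878 bases for SFRP4, whose window lies at the start of a shorter transcript and not at the outer end of the gene model.

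**Figure D1:**
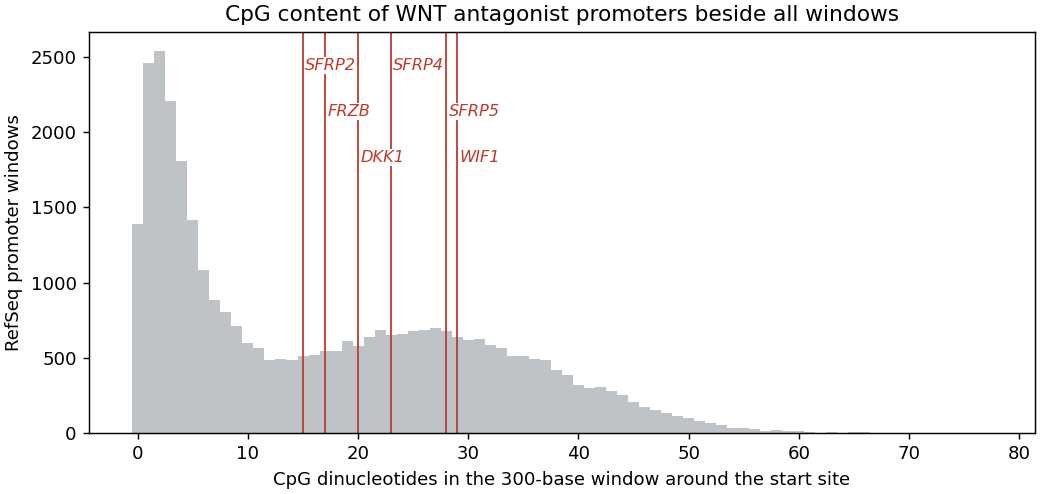
Histogram of the number of CpG dinucleotides (x axis) in 35116 RefSeq promoter windows of 300 bases (y axis, number of windows), with red lines at the 6 WNT antagonist genes that had a window. The 6 lines run from 15 CpGs in SFRP2 to 29 in WIF1, all above the median of 14.

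The windows were also searched on both strands for a core promoter box, spelled TATAAA, and for the core of the TCF/LEF motif, spelled CTTTGA. In the DKK1 window, 1 TATAAA match lay on the plus strand, beginning 30 bases before the start site, and 2 CTTTGA matches lay 95 bases before it on the plus strand and 149 bases before it on the minus strand. The other 5 windows held neither. Over all windows, 11.5% held TATAAA and 12.9% held CTTTGA. The motifs do not overlap in these matches, and a match describes the letters alone.

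Across the group, 6 of the 10 genes had enough counts to be tested, 1 was at 0 in every library and 3 had 20 or fewer counts in either group. With edgeR's quasi-likelihood test and Benjamini-Hochberg adjustment over all 17030 genes tested, 3 were called higher (NOTUM, SFRP5 and SFRP1) and 3 lower (SFRP4, DKK3 and DKK1) in UHRF1 KO at an adjusted p under 0.05. Of all genes tested, 32% were called higher and 30.1% lower, 62% in all, so calls in both directions were also what the whole table held. The 6 log2 fold changes ran from -2.64 to 3.85 around a median of 0.01, against a median of 0.02 over all genes tested. NOTUM passed the filter on low counts through the UHRF1 KO libraries alone and SFRP4 through the control libraries alone, so each of these genes had to differ once it was tested. Changes of at least 2-fold were called for NOTUM and SFRP5 upward and SFRP4 downward, where the share of all genes tested that was called with such a rise was 15.4%, and with such a fall 2.54%.

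**Figure D2:**
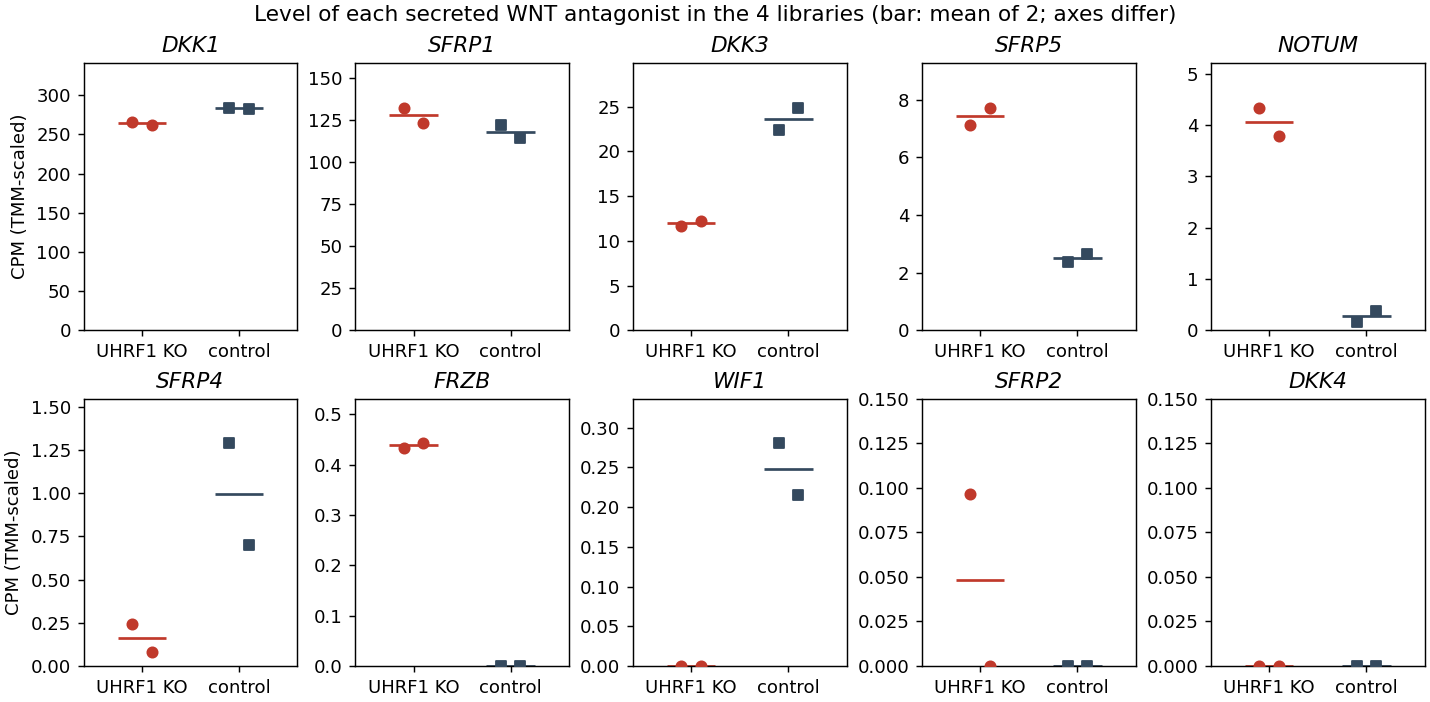
Level of each of the 10 genes (y axis, TMM-scaled CPM, a separate axis from 0 per gene) in the 2 UHRF1 KO libraries (red circles) and the 2 control libraries (dark squares), with a bar at each mean. NOTUM reads 4.34 and 3.78 CPM in UHRF1 KO against 0.168 and 0.377 CPM in control, and DKK3 reads 11.7 and 12.2 CPM in UHRF1 KO against 22.4 and 24.9 CPM in control.

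The range of abundance among the antagonists was wide. Per kilobase of merged exon, DKK1 averaged 119.7 CPM in UHRF1 KO and 128.5 CPM in control, and SFRP1 averaged 26.9 CPM per kilobase in UHRF1 KO and 24.8 in control. These were the highest levels of the group in every library. In UHRF1 KO they were followed by SFRP5 (4.05 CPM per kilobase), DKK3 (2.36), NOTUM (1.35), FRZB (0.139), SFRP4 (0.0446) and SFRP2 (0.0237), while WIF1 and DKK4 were at 0. In control the order after SFRP1 was DKK3 (4.68 CPM per kilobase), SFRP5 (1.36), SFRP4 (0.276), WIF1 (0.105) and NOTUM (0.0904), with SFRP2, FRZB and DKK4 at 0. Per kilobase, SFRP5 thus stood above DKK3 in both UHRF1 KO libraries and below it in both control libraries. That swap rests on the merged exon lengths, 1836 bases for SFRP5 and 5059 for DKK3, whose 16 transcripts were merged. In CPM, DKK3 stood above SFRP5 in every library, at 11.7 and 12.2 against 7.14 and 7.72 in UHRF1 KO. In the order per kilobase, the libraries of neighbours overlapped for SFRP4 and SFRP2 in UHRF1 KO and for WIF1 and NOTUM in control. Because DKK1 and SFRP1 dominate, the summed CPM of the 10 genes was 422 and 410 in UHRF1 KO against 433 and 426 in control. Without these 2 genes the sum was 23.9 and 24.3 CPM in UHRF1 KO against 26.5 and 28.8 CPM in control. DKK1 alone made up 62.9% and 64.0% of the summed CPM in the UHRF1 KO libraries and 65.6% and 66.4% in the control libraries.

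Among the inhibitors that act on the WNT ligand itself, NOTUM (ENSG00000185269, chromosome 17, 81952507 to 81961840, minus strand) rose most of those that passed the filter on low counts. The gene had 90 and 94 counts in the UHRF1 KO libraries and 3 and 7 in the control libraries. In CPM these were 4.34 and 3.78 against 0.168 and 0.377, with no overlap between the groups. NOTUM averaged 4.06 ± 0.39 CPM in UHRF1 KO and 0.273 ± 0.15 CPM in control (SD, n = 2 each). This 14.4-fold rise is 3.85 on the log2 scale (SE 0.37, edgeR adjusted p = 7.77e-11), at or above that of 96.4% of the genes tested. The control level rests on 10 counts in all, whose exact Poisson interval (95%, counting error only) is 4.80 to 18.4 counts. On the log2 scale the rise was 4.52 (22.9-fold) without control replicate 2 and 3.38 without control replicate 1.

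SFRP5 (ENSG00000120057, chromosome 10, 97766751 to 97771952, minus strand) also rose. It had 148 and 192 counts in UHRF1 KO against 42 and 49 in control. Both UHRF1 KO libraries, at 7.14 and 7.72 CPM, lay above both control libraries, at 2.36 and 2.64 CPM. The log2 fold change of 1.57 (SE 0.19) is a 2.97-fold rise (edgeR adjusted p = 8.43e-09), at or above that of 89.9% of the genes tested. SFRP5 thus had more counts in control than NOTUM, but its mean level over the 4 libraries was at or above that of only 34.1% of the genes tested. Its window printed above holds 28 CpGs, with a ratio of observed to expected CpG of 0.65.

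SFRP4 (ENSG00000106483, chromosome 7, 37905932 to 38025695, minus strand) fell, on few counts. There were 5 and 2 counts in the UHRF1 KO libraries and 23 and 13 in the control libraries. In CPM these were 0.241 and 0.0805 in UHRF1 KO and 1.29 and 0.701 in control, and the libraries within each group spread widely. The groups did not overlap, but this was fixed once SFRP4 passed the filter through the control libraries alone. The fall was 6.23-fold, or -2.64 on the log2 scale (SE 0.60, edgeR adjusted p = 0.000279), and 0.141% of the genes tested had a value as low or lower. It was 11.6-fold without UHRF1 KO replicate 1 and 4.05-fold without UHRF1 KO replicate 2. The gene EPDR1 lies across SFRP4 on the other strand but shares 0 exon bases with it. EPDR1 had 2345 and 2793 counts in UHRF1 KO against 1998 and 2154 in control and was not called (log2 fold change -0.02, edgeR adjusted p = 0.756).

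SFRP1 (ENSG00000104332, chromosome 8, 41261958 to 41309497, minus strand), the most abundant of the SFRP genes, was nearly level. Its values were 133 and 124 CPM in UHRF1 KO and 122 and 114 CPM in control, so the lower UHRF1 KO library lay above the higher control library by less than the gap between the libraries of either group. The log2 fold change was 0.11 (SE 0.047, edgeR adjusted p = 0.0362), but -0.18 (adjusted p = 0.00116) with every library recentred on the mean log2 level of the genes tested. Adjusted p ranged from 0.00116 to 0.495 over 12 alternatives, and the call was lost in 5 of them, among them DESeq2, limma-voom and the fit with no filter. Without control replicate 2 the value was 0.04 and without UHRF1 KO replicate 1 it was 0.06, neither called.

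The other 3 ligand-binding genes were at the limit of detection and did not pass the filter. FRZB (ENSG00000162998, chromosome 2, 182833275 to 182867162, minus strand) had 9 and 11 counts in the UHRF1 KO libraries and 0 in both control libraries. The observed UHRF1 KO counts lay 5.32-fold above a floor of 3 counts in the pooled controls. This ratio is no lower bound, as the pooled UHRF1 KO count has an interval of 12.2 to 30.9 counts. WIF1 (ENSG00000156076, chromosome 12, 65050626 to 65121566, minus strand) showed the opposite pattern, with 0 counts in both UHRF1 KO libraries and 5 and 4 in the control libraries. A floor of 3 counts in the pooled UHRF1 KO libraries lay 3.76-fold below the observed control counts. That is no lower bound either, as the pooled control count has an interval of 4.12 to 17.1 counts. With no filter on low counts, the only setting that tested them, edgeR's adjusted p was 0.000697 for FRZB and 0.0219 for WIF1. SFRP2 (ENSG00000145423, chromosome 4) had 2 and 0 counts in UHRF1 KO and 0 and 0 in control, a difference that was not detectable at this depth (adjusted p = 0.561 with no filter). A count of 0 over both libraries of a group allows up to 0.0658 CPM in UHRF1 KO and 0.0825 CPM in control.

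**Figure D3:**
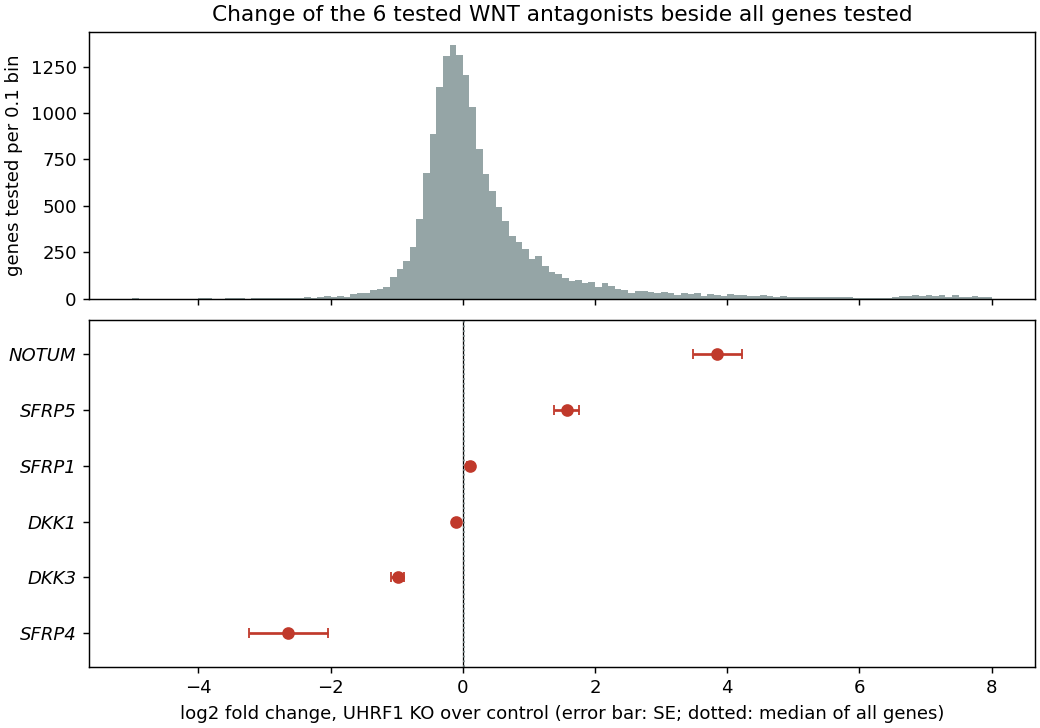
Top, histogram of the log2 fold change (UHRF1 KO over control) of the 17030 genes tested in bins of 0.1, with values outside -5 to 8 drawn in the end bins. Bottom, the 6 tested WNT antagonists on the same x axis with SE bars: NOTUM at 3.85 and SFRP5 at 1.57 lie to the right of most genes, DKK3 at -0.98 and SFRP4 at -2.64 to the left, and SFRP1 and DKK1 beside 0.

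Among the DKK genes, which code for proteins related to the LRP5 and LRP6 blocker DKK1, DKK3 fell. DKK3 (ENSG00000050165, chromosome 11, 11963106 to 12009769, minus strand) had 242 and 304 counts in UHRF1 KO against 400 and 462 in control. Its levels were 11.7 and 12.2 CPM in UHRF1 KO and 22.4 and 24.9 CPM in control, with no overlap between the groups. This is a 1.98-fold fall, or -0.98 on the log2 scale (SE 0.098, edgeR adjusted p = 1.80e-10), and 2.84% of the genes tested had a value as low or lower. The annotation gives DKK3 16 transcripts, which gene counts cannot separate.

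DKK1 (ENSG00000107984, chromosome 10, 52314296 to 52318042, plus strand) changed little and was the most highly expressed of the antagonists. It had 5507 and 6525 counts in UHRF1 KO and 5066 and 5246 in control. In CPM these were 266 and 262 in UHRF1 KO and 284 and 283 in control, a small but non-overlapping difference. It fell 1.07-fold, or -0.10 on the log2 scale (SE 0.037, edgeR adjusted p = 0.0155). The call was lost in 4 of 12 alternatives, among them upper-quartile scaling and the stricter filter of 1 CPM in 2 libraries, over which adjusted p ranged from 5.22e-12 to 0.161. Without UHRF1 KO replicate 1 the value was -0.12 and without UHRF1 KO replicate 2 it was -0.10, neither called, and with libraries recentred it was -0.40. The antisense gene PRKG1-AS1 shares 212 exon bases with DKK1, 9.61% of its merged exon, and had 33 and 53 counts in UHRF1 KO against 50 and 44 in control, few beside those of DKK1. The sources used here do not say whether counting used strand, so reads from the shared part cannot be told apart. DKK4 (ENSG00000104371, chromosome 8, 42374068 to 42377232, minus strand), like DKK1 a ligand of LRP5 and LRP6, had 0 counts in all 4 libraries.

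**Figure D4:**
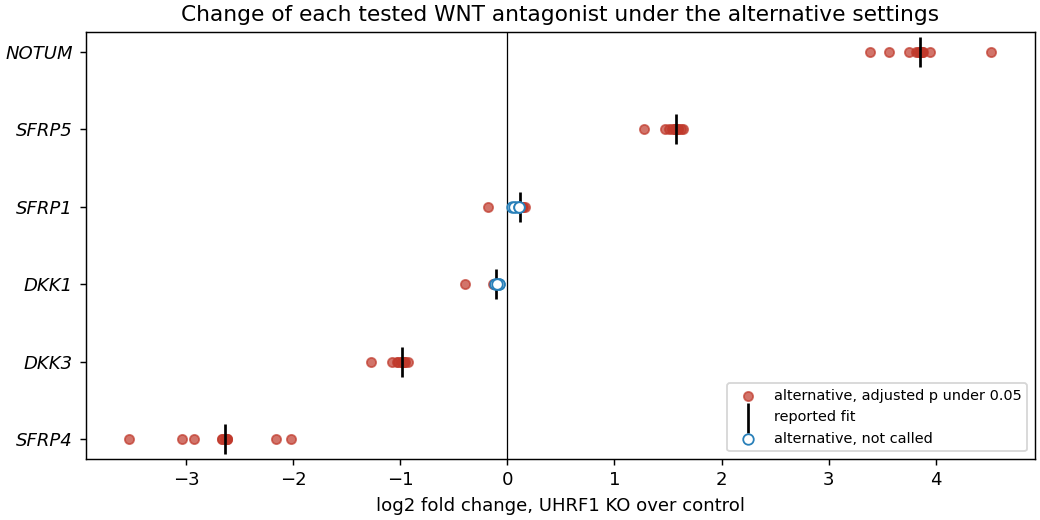
Log2 fold change (x axis, UHRF1 KO over control) of the 6 tested genes in the reported fit (black bar) and under each alternative setting (filled red, adjusted p under 0.05, open blue, not called). NOTUM, SFRP5, DKK3 and SFRP4 stay on their side of 0 and called in every alternative that tested them, while the points of SFRP1, from -0.18 to 0.16, lie on both sides of 0.

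Genes beside the antagonists on the chromosome, taken as the nearest tested protein-coding gene on either side, moved in various ways. Their distances ran from 2260 bases (POLB to DKK4) to 4039186 bases (ZWINT to DKK1), with TCIM 1106650 bases from SFRP1, so not all lie close by. Of the 20 neighbours of the 10 genes, 7 were called higher and 10 lower, 85% in all beside 62% of all genes tested. Both neighbours of SFRP5 were called higher, ZFYVE27 with a log2 fold change of 0.32 and GOLGA7B with 0.80, against 1.57 for SFRP5. Both neighbours of DKK3 were called lower, USP47 with -0.45 and MICAL2 with -0.82, against -0.98 for DKK3. NOTUM lay between PYCR1, lower at -0.54, and ASPSCR1, higher at 0.29. FRZB lay between DNAJC10 at 0.09 and NCKAP1 at -0.37. SFRP1, nearly level, lay between TCIM, higher at 1.51, and GOLGA7, lower at -0.12, and DKK4, with no counts, lay between POLB, not called at 0.04, and VDAC3, lower at -0.77. Around WIF1, TBC1D30 was higher at 0.47 and LEMD3 lower at -0.38, and around SFRP2, TLR2 was higher at 2.60 and PLRG1 lower at -0.35. TLR2, counted among the 7, had 12 and 20 counts in UHRF1 KO against 0 and 4 in control. It passed the filter on low counts through UHRF1 KO alone and so had to be higher. Around SFRP4, GPR141 was not called at -0.53 and STARD3NL was lower at -0.20, and around DKK1, PRKG1 was not called at -0.39 and ZWINT was lower at -0.47.

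The genes whose pattern over the 4 libraries was most like that of NOTUM, by Euclidean distance of log2 CPM with a prior count of 2 among tested protein-coding genes, included CTHRC1 (distance 0.33) and NECTIN4 (0.62). Their rises of 12.8-fold and 9.15-fold became 24.4-fold and 15.3-fold without control replicate 2. Across the alternatives their log2 fold changes ran from 3.11 to 4.61 and from 2.69 to 3.94. Both were picked by these values, and their control counts alone would not have passed the filter on low counts. A rise and a move like those of NOTUM were therefore fixed by the choice. The nearest to SFRP4 were PDE1A (0.55), COL11A1 (0.78) and GATA5 (0.79), all with 26 or fewer counts in any library, so this likeness is between genes near the detection limit. Like SFRP4, they passed the filter on low counts through control alone, so a fall was fixed by the choice. Of these, PDE1A (log2 fold change -3.15, edgeR adjusted p = 8.36e-05) was not called without control replicate 1 (-2.39, adjusted p = 0.0594). COL11A1 (-1.93, edgeR adjusted p = 0.00394) was not called without control replicate 1 (-1.81, adjusted p = 0.0832), without UHRF1 KO replicate 2 (-1.65, adjusted p = 0.0891) or in DESeq2 (-1.95, adjusted p = 0.0637). Over all alternatives the adjusted p ranged from 1.07e-05 to 0.0594 for PDE1A and from 0.000753 to 0.0891 for COL11A1. The 7.24-fold fall of GATA5 was 13.5-fold without UHRF1 KO replicate 1 and 4.70-fold without UHRF1 KO replicate 2.

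The rest of the WNT pathway was read from lists by role, with all genes tested (32% called higher, 30.1% lower) as the background. With every library recentred, which moves all genes by about the same amount, that background is 20.4% higher and 49.4% lower. Of 16 other extracellular antagonists and regulators that remove receptors, 10 were tested, 5 were higher and 1 was lower, with a median log2 fold change of 0.55 (4 and 2 with libraries recentred). DRAXIN and TRABD2B, among the 5, passed the filter through UHRF1 KO alone and so had to be higher. DRAXIN, a secreted guidance protein that binds LRP6, had 60 and 73 counts in UHRF1 KO against 5 and 5 in control and rose by a log2 fold change of 3.38 (SE 0.40). TPBG, a membrane inhibitor of WNT signalling, rose 1.67-fold, to 135 and 131 CPM in UHRF1 KO against 77.9 and 81.2 CPM in control. IGFBP4, an insulin-like growth factor binding protein that also antagonises WNT, fell 1.62-fold, to 1238 and 1282 CPM in UHRF1 KO against 2093 and 1988 CPM in control.

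Of 21 genes for WNT ligands and their secretion, 9 were tested, 4 were higher and 5 lower (median -0.27), or 3 and 5 with libraries recentred. PORCN, the enzyme that attaches the lipid that NOTUM removes, rose 5.00-fold, with 2011 and 2531 counts in UHRF1 KO against 364 and 359 in control. The ligand gene WNT2B rose 3.31-fold, while WNT7B fell 1.28-fold and WLS, the carrier of lipidated WNT to the cell surface, fell 1.24-fold. Of 23 receptors, coreceptors and R-spondins, 18 were tested, 7 were higher and 6 lower (median 0.07), and with libraries recentred 4 were higher and 10 lower (median -0.22). FZD4 rose 4.51-fold, to 35.3 and 33.6 CPM in UHRF1 KO against 6.56 and 8.68 CPM in control, and the coreceptor PTK7 rose 5.53-fold. FZD2 fell 2.90-fold, to 15.7 and 15.6 CPM in UHRF1 KO against 43.4 and 47.3 CPM in control, and the R-spondin receptor LGR4 fell 1.39-fold.

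**Figure D5:**
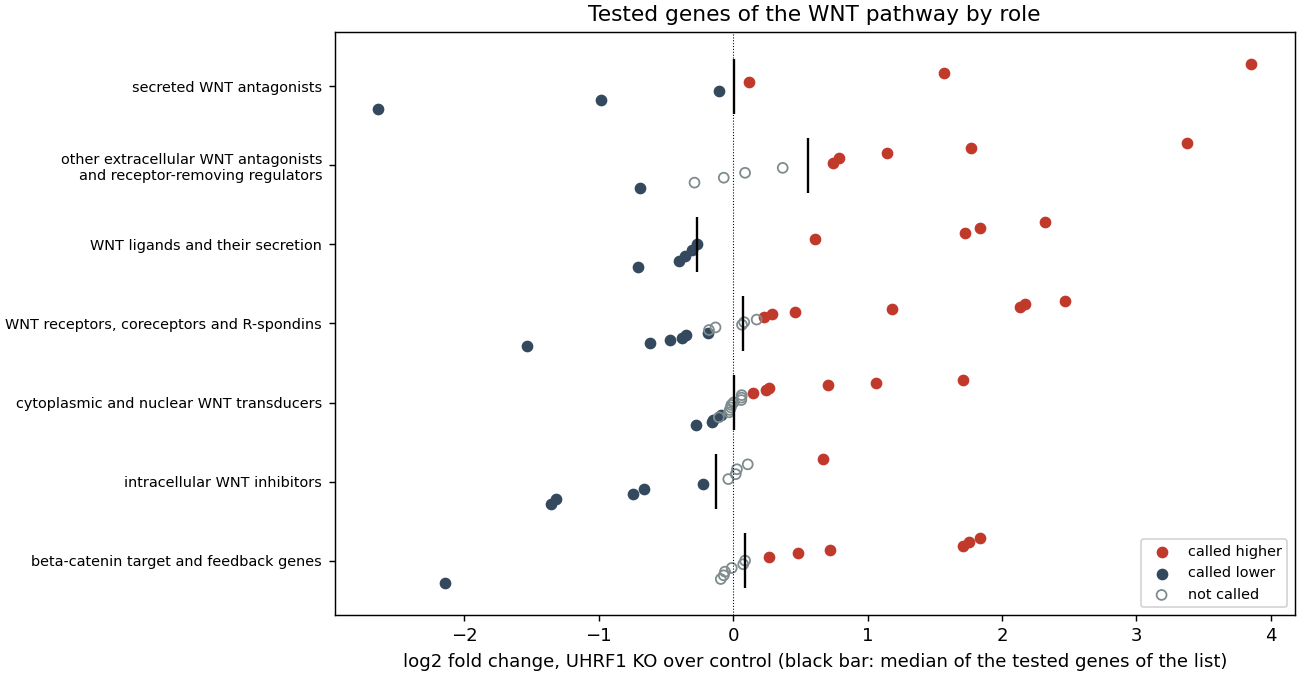
Log2 fold change (x axis, UHRF1 KO over control) of every tested gene of 7 WNT pathway lists (rows), one point per gene, with the list median as a black bar. Red points were called higher, dark points lower and open points were not called, and the secreted antagonists in the top row spread from -2.64 to 3.85.

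Of 20 cytoplasmic and nuclear transducers, 19 were tested, 6 were higher and 4 lower (median 0.00), while upper-quartile scaling gave 6 higher and 2 lower and recentred libraries 3 higher and 14 lower. TCF7, a transcription factor of the TCF/LEF family, rose 3.28-fold, to 28.6 CPM in both UHRF1 KO libraries against 9.98 and 7.49 CPM in control, and the scaffold gene DVL1 rose 1.63-fold. The tankyrase genes TNKS and TNKS2, whose enzymes mark AXIN for breakdown, fell 1.21-fold and 1.11-fold. The TNKS2 fall (log2 fold change -0.15, edgeR adjusted p = 0.00903) was not called without control replicate 2 (-0.09, adjusted p = 0.133), without UHRF1 KO replicate 2 (-0.15, adjusted p = 0.0601) or in DESeq2 (-0.15, adjusted p = 0.0596), within a range of 5.27e-10 to 0.133 over 12 alternatives. Of 14 intracellular inhibitors, 10 were tested, 1 was higher and 5 lower (median -0.13), or 1 and 6 with libraries recentred. The corepressor gene TLE3 rose 1.59-fold, while its relative TLE4 fell 2.55-fold and AMER1, a partner of the beta-catenin destruction complex, fell 1.68-fold.

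Of 17 beta-catenin target and feedback genes, 13 were tested, 6 were higher and 1 was lower (median 0.09, or -0.20 with libraries recentred, when 5 were higher and 3 lower). Besides TCF7, EPHB2, an ephrin receptor, rose 1.65-fold, and EPHB3 fell 4.42-fold on 4 and 6 counts in UHRF1 KO against 16 and 20 in control, having passed the filter through control alone. AXIN2 and NKD1, feedback inhibitors named after their values were seen, rose 3.37-fold and 3.58-fold (edgeR adjusted p = 7.11e-12 and 1.58e-08). AXIN2 had 256 and 298 counts in UHRF1 KO against 57 and 74 in control. NKD2, RNF43, ZNRF3, TNFRSF19, CCND1 and BMP4 of the same list were tested and not called. The stem cell marker LGR5 had 5 and 2 counts in UHRF1 KO and 0 in both control libraries, and LEF1 had 0 and 0 in UHRF1 KO and 0 and 1 in control.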

How the data were processed

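RNA-seq was done on 4 A549 libraries, 2 UHRF1 KO and 2 control. The authors deposited whole-number read counts per Ensembl gene, not normalized. Per the submitters' processing notes, FastQC 0.10.1 and build GRCh38 were used; the sources used here name no aligner, counter, annotation or strand setting. Per the labels' protocols, a SMARTER mRNA-Seq kit was used for the libraries. The short name numbered 1 stands in the description of both controls, so control columns were numbered by the sample titles, which bears on the block and on names of left-out controls. Replicates differed by more than counting noise (chi-square per degree of freedom 1.85 for UHRF1 KO and 2.65 for control, over genes with at least 20 counts).

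All 58735 identifiers matched GENCODE 29 and RefSeq supplied promoters. In R 4.3.3, edgeR 4.0.16 (filterByExpr, TMM, robust quasi-likelihood F test, two-sided) was fitted to the whole table, and the step was tested on simulated data. CPM uses TMM-scaled sizes, where 1 count is worth 0.0402 to 0.0561 CPM. Each SE is the absolute log2 fold change over the root of F. Intervals and floors cover counting error only. With 2 libraries against 2, an exact permutation test of a single value cannot go below p = 0.333. Alternatives were other scalings, filters, the replicate number as a block, each library left out, DESeq2 1.42.0, limma-voom (limma 3.58.1) and a threshold of 0.01.

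The genes, lists and tests were chosen with earlier results of these data known. Named were the 10 genes, UHRF1, up to 2 called higher and 2 called lower genes per list with the smallest adjusted p, and the 3 protein-coding genes nearest to the largest riser and to the largest faller, of which 1 is not reported here.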

Additional observations from a re-analysis of the deposited data

How the results depend on the processing

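Of all genes, 5445 were higher and 5118 lower (51.5% higher), with 5450 and 5162 under DESeq2 size factors and 5696 and 4822 under upper-quartile factors, but with every library recentred on its mean log2 level, which shifted the median gene by -0.29, 3481 were higher and 8411 lower (29.3%). Under that setting 2 antagonists were higher and 4 lower, since SFRP1 turned to -0.18. With at least 1 CPM required in 2 libraries, 1 antagonist was lower, because SFRP4 was no longer tested and DKK1 lost its call. NOTUM, SFRP5, SFRP4 and DKK3 kept direction and call under every alternative that tested them, while SFRP1 lost its call in 5 of 12 and DKK1 in 4 of 12 alternatives. Both also lose it at a threshold of 0.01, which leaves 2 antagonists higher and 2 lower. Of 29 other genes that the rule or the text names, 26 kept direction and call under every alternative that tested them, and TNKS2, PDE1A and COL11A1 lost the call under at least 1. The cause of these losses was not tested.

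With the replicate number as a block, 5280 genes were higher and 4986 lower, and 3 antagonists were called in each direction. The block changed the call of none of the 6 antagonists. Same-numbered libraries did not deviate together (correlation of deviations from group means -0.01). With 2 libraries per group and controls numbered by title, this does not settle whether any of them shared a culture or preparation. Leaving out each library gave 4626 to 5137 genes higher and 4388 to 5037 lower, with 2 to 3 antagonists in each direction. In these fits the lone library of a group is assumed to vary like the other group. Depth limits FRZB, WIF1, SFRP2 and DKK4, with 20 or fewer counts in either group.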
